A study of Mus musculus with 6 samples.

Results

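HDAC3 is a histone deacetylase that works as the catalytic subunit of the NCoR/SMRT corepressor complexes. This account covers Hdac3 and the genes of the complex's other core subunits in double-positive (DP) thymocytes, the T cell precursors of the thymus with both CD4 and CD8 on their surface. Members were found by gene symbol in the platform's annotation, from a list of 5 genes: Hdac3, Ncor1, Tbl1x, Tbl1xr1 and Gps2. The list matched 5 probe sets of 4 genes, out of 28853 probe sets on the array, of which 23410 carried a gene symbol and were tested. Each of the 5 probe sets held 1 symbol only. Tbl1xr1 had 2 probe sets, here called probe set 1 and probe set 2 in order of mean signal, and Ncor1 was not analysed here.

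The study set wild-type (WT) C57BL/6 mice against Hdac3 knockout (KO) mice of the same strain, all 3 weeks old and without treatment, with 3 arrays per genotype. The series title writes the knockout as LCK:Hdac3 KO, and Lck encodes a kinase of the T lineage. Which part of Hdac3 was removed, what removed it, and whether the WT mice carried any of the same alleles were not stated in these sources. RNA was pooled from 2 mice per genotype according to the design text, which does not tie mice to arrays. The 3 arrays of a genotype may therefore share a pool. A p-value or interval here measures only the spread between arrays, part or all of which may be technical.

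NCoR and SMRT are large scaffold proteins that nuclear receptors and other DNA-bound repressors recruit to their target genes. HDAC3 is active only when bound to a scaffold's deacetylase-activating domain, and the related WD40-repeat proteins TBL1X and TBL1XR1, together with GPS2, bind the scaffold's N-terminal repression domain. TBL1X and TBL1XR1 also bind histone tails and take part in exchanging corepressors for coactivators.

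RefSeq (assembly GRCm38.p6) held promoter windows for the 3 measured partner genes, running from 250 bases before to 50 bases after the transcript start. The windows of Tbl1x and Tbl1xr1, whose signals were higher in KO, are shown beside that of Gps2, whose signal did not pass the test. All are on the plus strand, at chrX:77510977-77511276, chr3:22076402-22076701 and chr11:69913770-69914069. The RefSeq gene starts were 77509549 for Tbl1x and 22076253 for Tbl1xr1, both before the window, and 69913980 for Gps2, inside it. Other transcript starts of these genes were not examined. Capitals mark matches, on either strand, to any of 4 short motifs: AGGTCA of nuclear receptors, CCGGAA of ETS factors, the GC box GGGCGG and the E-box CACGTG.

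Tbl1x: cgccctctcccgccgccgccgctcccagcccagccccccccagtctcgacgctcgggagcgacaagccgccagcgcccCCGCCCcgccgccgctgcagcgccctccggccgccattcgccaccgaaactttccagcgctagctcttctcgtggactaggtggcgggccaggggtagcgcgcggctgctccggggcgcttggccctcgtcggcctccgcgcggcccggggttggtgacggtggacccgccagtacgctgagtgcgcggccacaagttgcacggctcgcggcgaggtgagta

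Tbl1xr1: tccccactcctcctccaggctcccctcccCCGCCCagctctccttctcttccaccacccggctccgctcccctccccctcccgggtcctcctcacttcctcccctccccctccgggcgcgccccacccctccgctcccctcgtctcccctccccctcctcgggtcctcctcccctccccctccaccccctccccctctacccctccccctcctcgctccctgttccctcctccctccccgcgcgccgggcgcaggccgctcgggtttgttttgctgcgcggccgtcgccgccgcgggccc

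Gps2: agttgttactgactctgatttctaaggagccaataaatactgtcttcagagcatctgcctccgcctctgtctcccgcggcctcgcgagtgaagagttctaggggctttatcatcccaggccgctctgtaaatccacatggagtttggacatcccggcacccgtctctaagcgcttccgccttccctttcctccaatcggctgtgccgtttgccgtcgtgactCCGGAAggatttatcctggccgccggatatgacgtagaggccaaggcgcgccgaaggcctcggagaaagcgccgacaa

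The windows of Tbl1x and Tbl1xr1 were rich in G and C, at 75.3% and 76.3%, contents reached by 3.6% and 2.9% of the 32851 windows in the RefSeq table. The Gps2 window had 56.7% G and C, reached by 38.4% of windows. Tbl1x and Tbl1xr1 each held 1 GC box on the minus strand, a motif present in 35.7% of all windows, and none of the other 3 motifs. Gps2 held 1 ETS motif, present in 14.9% of windows. The motifs AGGTCA (16.3% of windows) and CACGTG (7.2%) matched in none of the 3 windows. A match describes letters in the window and not a bound site.

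Hdac3 signal was lower on every KO array. Arrays 1, 2 and 3 had log2 values of 9.40, 9.42 and 9.44 in WT and 8.28, 8.32 and 8.32 in KO. The groups lay far apart, and the arrays of each genotype differed by no more than 0.04. The log2 difference was -1.12 (SE 0.08), which left the KO signal at 46.2% of WT (95% interval 40.5% to 52.6%; limma, Benjamini-Hochberg adjusted p = 3.5e-04). The sources do not place the probes relative to the deletion, so this value checks the labels and does not measure remaining HDAC3 protein. In bulk RNA, fewer cells with the transcript and less transcript per cell cannot be told apart.

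Tbl1x, which encodes one of the paired WD40 subunits, moved the other way. Its log2 values were 9.74, 9.49 and 9.58 in WT and 10.36, 10.38 and 10.33 in KO. The lowest KO array was above the highest WT array, with an SD of 0.13 in WT and 0.03 in KO (n = 3 each). Tbl1x rose by 0.75 (SE 0.10), or 1.68-fold with a 95% interval of 1.45 to 1.96 (limma adjusted p = 0.0033).

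Tbl1xr1, which encodes the other WD40 subunit, rose on both of its probe sets. Probe set 1 had log2 values of 9.80, 9.73 and 9.69 in WT and 10.43, 10.43 and 10.33 in KO. Probe set 2 had 9.83, 9.75 and 9.59 in WT and 10.42, 10.24 and 10.30 in KO. Neither probe set showed an overlap between genotypes. The rise was 1.58-fold (95% interval 1.38 to 1.81; limma adjusted p = 0.0039) on probe set 1 and 1.51-fold (95% interval 1.29 to 1.77; limma adjusted p = 0.011) on probe set 2. The probe sets' log2 rises differed by 0.06, and the rises of Tbl1x and Tbl1xr1 probe set 1 by 0.09. In exact two-sided permutation tests of the 3 WT against the 3 KO arrays these p-values were 0.5 and 0.2 (0.5 and 0.4 after Benjamini-Hochberg adjustment over the 2 comparisons), in a design whose smallest possible p is 0.1. Tbl1x and Tbl1xr1 are paralogs with similar coding sequences, and whether their probes share signal was not tested.

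Gps2 encodes the small subunit that binds the scaffold's repression domain beside TBL1X and TBL1XR1 and also acts as a signalling protein in the cytosol. Its log2 values were 9.46, 9.46 and 9.51 in WT and 9.49, 9.37 and 9.48 in KO. The genotypes overlapped, and KO array 2 was the lowest of the 6. The log2 difference was -0.03 (SE 0.09, limma adjusted p = 0.88), and its 95% interval placed the KO signal between 85.7% and 113% of WT. That interval lies wholly below the intervals of Tbl1x and of both Tbl1xr1 probe sets, although the difference between these genes was not itself tested.

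**Figure D1:**
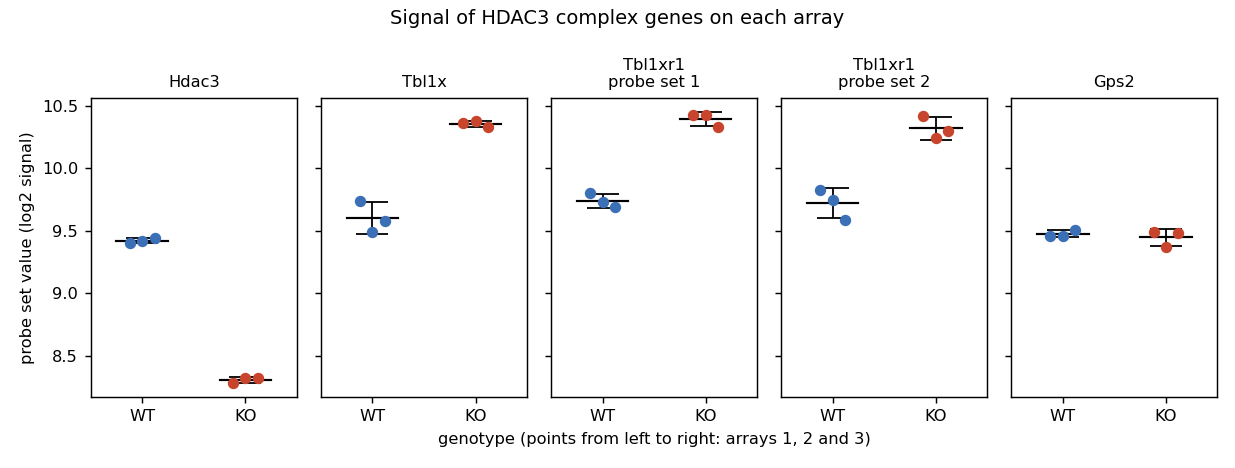
Log2 probe set signal (y axis) on the 3 WT arrays (blue) and 3 KO arrays (red) for Hdac3, Tbl1x, both Tbl1xr1 probe sets and Gps2, with lines at the mean and bars of 1 SD. Hdac3 drops from about 9.42 to 8.31, Tbl1x and Tbl1xr1 lie above 10.2 on every KO array and below 9.9 on every WT array, and Gps2 stays between 9.37 and 9.51.

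Of the 5 probe sets 3 were called higher in KO, where 1.75% of all probe sets tested were, and 1, that of Hdac3, was called lower, where 4.04% were. The call rate in either direction was 5.79% over all probe sets. Genotypes did not overlap for 4 of the 5, against 30.0% of all probe sets tested. The members were chosen with earlier results of these data known, so these counts describe the members and test nothing. Among all 23410 probe sets, ordered by the size of the rise, Tbl1x stood at 74, and Tbl1xr1 at 108 with probe set 1 and 141 with probe set 2. Hdac3 stood at 64 when ordered by the size of the fall.

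The typical difference varied with signal level, with bin medians from -0.17 to 0.16. KO arrays also had a narrower spread of signal (interquartile range 3.06 to 3.25) than WT arrays (3.29 to 3.49), and the part of that spread in the bin medians was not tested. In 10 equal bins of mean signal, Tbl1x, Tbl1xr1 and Gps2 fell in the brightest, from 9.21 upward, where the median difference was -0.04 and 2.86% of probe sets were called higher. Within that bin of 2341 probe sets, a difference as high as that of Tbl1x was reached by 10 probe sets, Tbl1x included. For Tbl1xr1 the numbers were 16 (probe set 1) and 22 (probe set 2), and for Gps2 1063. Hdac3 fell in the next bin down, where the median difference was -0.13, and 9 of 2341 probe sets, Hdac3 included, were as low.

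**Figure D2:**
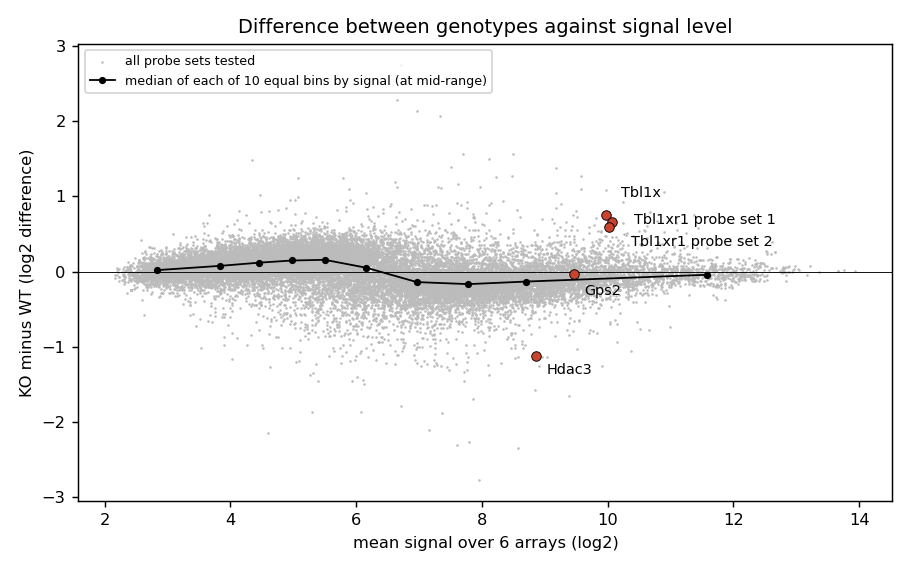
KO minus WT log2 difference (y axis) against mean log2 signal over 6 arrays (x axis) for the 23410 probe sets tested (grey), with the median of each of 10 equal bins by signal (black line) and the 5 member probe sets (red). The median line dips to -0.17 in bin 8 and returns to -0.04 in the brightest, where Tbl1x and Tbl1xr1 lie well above it, Gps2 on it, and Hdac3 lies far below it in bin 9.

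These 4 genes were read against the rest of the arrays and their cells. Of 11 measured DP markers 10 did not pass and 1, the lipid-presenting Cd1d1, was lower in KO, at a mean of 7.75 against 8.40 on the log2 scale (KO minus WT -0.65, limma adjusted p = 0.020). Its call was lost without WT array 1 (-0.58) or 2 (-0.68) or KO array 2 (-0.53) or 3 (-0.71). The dimmest, the pre-TCR chain gene Ptcra, had 7.62 and 7.47. The coreceptor and recombinase genes had mean log2 values of 11.23 in both genotypes for Cd4, 12.85 in WT and 12.81 in KO for Cd8a, and 12.94 and 13.01 for Rag1. The summed linear signal of 12 neutrophil markers was 1013 on KO array 2 and 261 to 302 on the other 5 arrays. The corresponding sums ranged from 309 to 351 in WT and 341 to 371 in KO for 10 macrophage markers, 288 to 333 and 285 to 311 for 7 B cell markers, 335 to 383 and 374 to 400 for 8 thymic epithelium markers, and 79 to 100 and 102 to 116 for 3 erythroid markers. The level that marks background is unknown for these arrays, so no marker can be called absent. In the fit, 1.84% of all genes were called higher, 4.25% lower, and 26.5% had an unadjusted p under 0.05. The DP counts above and the marker counts here stand beside these shares. In KO, 1 of 3 erythroid markers was higher and 1 of 8 thymic epithelium markers lower. Of the neutrophil, macrophage and B cell markers 0 passed (limma), with 2, 2 and 0 at an unadjusted p under 0.05. What part these cells have in the member differences was not tested. Without KO array 2 the log2 differences were -1.12 for Hdac3, 0.74 for Tbl1x, 0.64 for each Tbl1xr1 probe set and 0.01 for Gps2.

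Over 14 alternatives, of which 6 left out 1 array each, Hdac3 ranged from -1.22 to -1.0, Tbl1x from 0.65 to 0.82, Tbl1xr1 probe set 1 from 0.56 to 0.73 and probe set 2 from 0.50 to 0.67. All 4 probe sets were called in each of the 14 (limma adjusted p up to 0.0040, 0.018, 0.021 and 0.047). Gps2 ranged from -0.13 with median centring to 0.07 with cyclic loess normalization, changed sign in 3 of them, and was called in none.

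**Figure D3:**
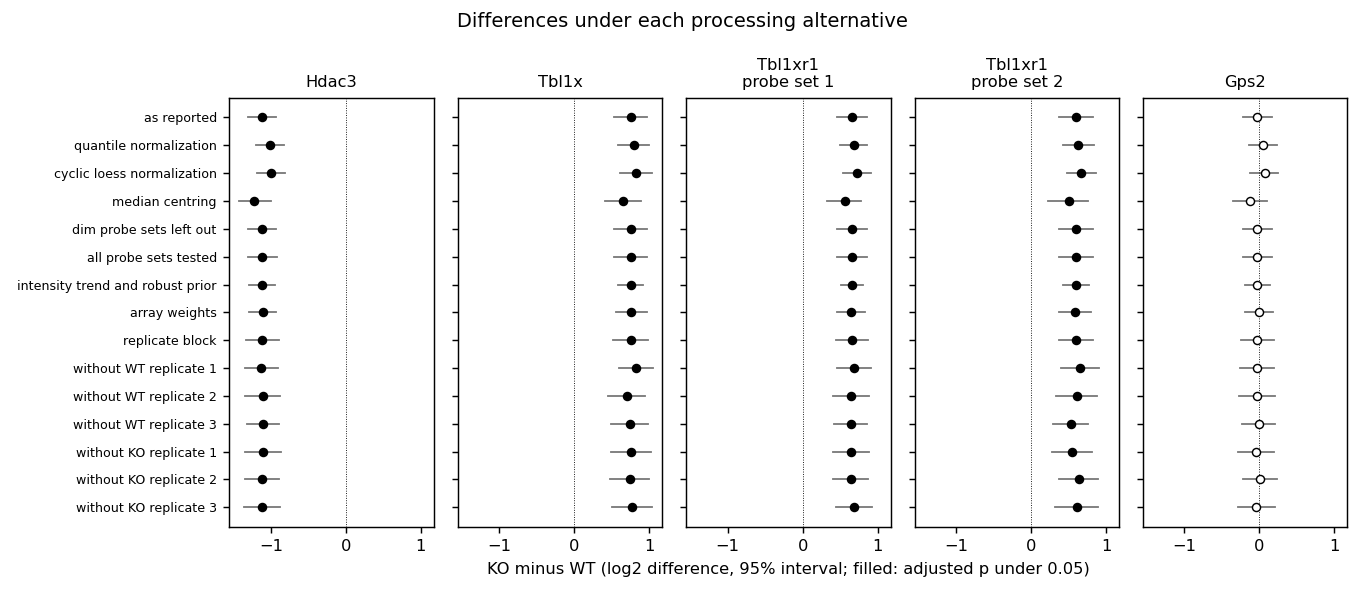
KO minus WT log2 difference with its 95% interval (x axis) for each member probe set, as reported and under each of 14 alternatives (y axis), with filled points where the adjusted p was under 0.05. Hdac3 stays near -1.1, Tbl1x and both Tbl1xr1 probe sets stay at 0.50 or above, and the intervals of Gps2 span 0 throughout.

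The chromosomal neighbours of each gene were measured too, taking the 3 nearest genes on either side that had a probe set of their own. None of the 6 neighbours passed the test around Hdac3 (differences -0.17 to 0.18), Tbl1x (-0.24 to 0.22), Gps2 (-0.29 to 0.18) or Ncor1 (-0.19 to 0.29) in limma, and 1 of them, beside Ncor1, had an unadjusted p under 0.05. Over all genes 1.84% were called higher, 4.25% were called lower, and 26.5% had an unadjusted p under 0.05. Around Tbl1xr1, 1 of 6 passed. This was Gyg, which encodes the glycogen primer glycogenin and fell by 0.87 (SE 0.11, limma adjusted p = 0.0027), opposite in direction to Tbl1xr1. Apart from Prkx (8.57), the Tbl1x neighbours had WT means of only 2.31 to 4.32 on the log2 scale. Beside Tbl1xr1, Cpb1, Cpa3, Naaladl2 and Nlgn1 had WT means of 3.16 to 3.89. In the level bins below a mean of 4.73, only 0.17% to 1.84% of probe sets were called. A lack of calls at such levels does not show whether those genes changed.

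Genes whose deviations from the WT mean followed a member most closely over 6 arrays were found by the smallest root mean square (RMS) difference. The candidates were probe sets of 1 symbol with a mean signal above the median of 5.77. Predicted genes, clone-named genes, small RNAs, and T cell receptor and immunoglobulin segments were left out. Nearest to Hdac3 were Ccdc88a, an actin-binding protein (RMS difference 0.072), the LIM-only factor Lmo4 (0.073), Ei24 (0.085), Plxdc2 (0.094) and the calponin Cnn2 (0.10). Their log2 differences lay between -1.18 and -1.02. Nearest to Tbl1x were Gimap6, a GTPase of lymphocytes (0.068), the ethanolamine kinase Etnk1 (0.082), Tecpr1, a protein of autophagy (0.083), Tbl1xr1 itself (0.088) and the coronin Coro7 (0.091). Nearest to Tbl1xr1 were Etnk1 (0.062), Nabp1, a single-stranded DNA-binding protein (0.068), Tecpr1 (0.075), Cdca4 (0.076) and Gimap6 (0.080). The Tbl1x and Tbl1xr1 sets shared 3 genes, Gimap6, Etnk1 and Tecpr1, with log2 differences of 0.75, 0.67 and 0.64. The measure picks genes whose differences are close to the member's own, and Tbl1x and Tbl1xr1 were themselves close. The sharing therefore follows in part from the measure and tests nothing.

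Genes that bring the complex to DNA changed in both directions. Of 23 measured recruiters, 3 fell and 1 rose, with a median log2 difference of 0.01 beside 0.02 over all 19938 genes. Over all genes 4.25% fell and 1.84% rose. Nr1d2, which encodes the heme-sensing repressor REV-ERB beta, had log2 values of 7.84, 7.56 and 7.56 in WT and 6.39, 6.11 and 6.69 in KO, and fell by 1.25 (SE 0.15, limma adjusted p = 0.0024). Bach2, a repressor of lymphocyte effector genes, had 6.10, 6.20 and 6.38 in WT and 5.45, 5.26 and 5.45 in KO, and fell by 0.84 (SE 0.11, limma adjusted p = 0.0032). Both genes were lower on every KO array.

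Bcl6, a zinc finger repressor that binds SMRT and NCoR, was the recruiter that rose. Its log2 values were 10.49, 10.22 and 10.28 in WT and 11.02, 10.85 and 10.94 in KO, a rise of 0.61 (SE 0.10, limma adjusted p = 0.012). Bcl6 did not pass without WT array 2 (0.55) or KO array 3 (0.60), with a limma adjusted p of 0.051 in each. The remaining call was Thra, the thyroid hormone receptor alpha gene, which fell by 0.59 (SE 0.10, limma adjusted p = 0.010) and is named here after its values were seen. The REV-ERB alpha gene Nr1d1 had a difference of -0.02 and the Notch partner Rbpj, which binds corepressors when Notch is silent, 0.03.

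Class IIa deacetylases have little catalytic activity of their own and bind the complex through HDAC3's scaffold. Of 6 measured partners, 4 of which were class IIa genes, Hdac5 rose and 5 did not pass. Over all genes 1.84% rose and 4.25% fell. Hdac5 had log2 values of 7.33, 7.30 and 7.35 in WT and 7.81, 7.82 and 7.80 in KO, a rise of 0.49 (SE 0.08, limma adjusted p = 0.013), and did not pass without WT array 2 (0.47, limma adjusted p = 0.052) or KO array 3 (0.49, limma adjusted p = 0.053). Differences of Hdac4, Hdac7 and Hdac9 were 0.11, 0.13 and 0.05. Coro2a, a coronin found with NCoR, had 0.08, and the histone demethylase Kdm4a -0.04.

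HDAC3 is folded by the TRiC chaperonin, binds its scaffold with an inositol phosphate, and is phosphorylated by casein kinase 2 and dephosphorylated by protein phosphatase 4. Of 14 measured genes of these steps, 1 fell and 13 did not pass, with a median difference of -0.21 and a range of -0.41 to 0.19. Over all genes 4.25% fell and 1.84% rose. All of the 14 had a mean signal above 6.55, where the median of every level bin was also negative (-0.17 to -0.04). The fall was that of the phosphatase subunit Ppp4r1, by 0.41 (SE 0.10, limma adjusted p = 0.041). Its call was lost with quantile (-0.28) or cyclic loess (-0.29) normalization, with the replicate number as a block (-0.41, limma adjusted p = 0.051), and without WT array 1 or 2 or KO array 2 or 3 (-0.42 to -0.36). The chaperonin genes Tcp1 and Cct6a had differences of -0.21 and -0.32, and the kinase genes Csnk2a1 and Csnk2a2 of -0.05 and -0.13.

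TBL1X and TBL1XR1 bring ubiquitin-conjugating enzymes to promoters when corepressors are released. Over all genes 1.84% were called higher, 4.25% lower, and 26.5% had an unadjusted p under 0.05. Of 9 measured genes of corepressor exchange and of beta-catenin, which binds both proteins, 0 passed the test (limma), a count near those call shares. None of the 9 had an unadjusted p under 0.05. Differences ran from -0.17 to 0.18. The highest difference was 0.18, for the ubiquitin-conjugating enzyme gene Ube2d3 (limma adjusted p = 0.23), and beta-catenin's gene Ctnnb1 had 0.04.

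Genes of 3 other nuclear deacetylase complexes were measured beside these, where over all genes 1.84% were called higher and 4.25% lower. None of them was called higher, a count near that share. In the SIN3 complex 3 of 14 genes fell: Sap30 by 0.76 (SE 0.10, limma adjusted p = 0.0041), its paralog Sap30l by 0.50 and Sap130 by 0.45. In the CoREST complex 1 of 7 fell, the scaffold gene Rcor2, by 0.42 (SE 0.10, limma adjusted p = 0.047). In the NuRD complex 0 of 13 passed (limma), while 5 (38.5%) had an unadjusted p under 0.05, as did 26.5% of all genes. The smallest p there was that of Mta1 (-0.31, limma adjusted p = 0.065). The deacetylase genes Hdac1 and Hdac2 had differences of -0.01 and -0.25. Median differences were -0.19, -0.23 and -0.03 for SIN3, CoREST and NuRD. Apart from Sap30, all genes of these lists had a mean signal above 6.55, where the median of every level bin was also negative (-0.17 to -0.04), while the bin of Sap30 had a median of 0.16. Sap30 was called under all 14 alternatives, whereas Sap30l, Sap130 and Rcor2 were not called after quantile or cyclic loess normalization. Rcor2 was also lost with array weights (-0.37), with all probe sets tested (-0.42) and without any 1 of the 6 arrays (-0.49 to -0.36). Sap30l (-0.54 to -0.40) and Sap130 (-0.47 to -0.44) were lost without any array other than WT array 3, and Sap30l also with the replicate block (-0.50, limma adjusted p = 0.052) and with all probe sets tested (-0.50, limma adjusted p = 0.051).

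**Figure D4:**
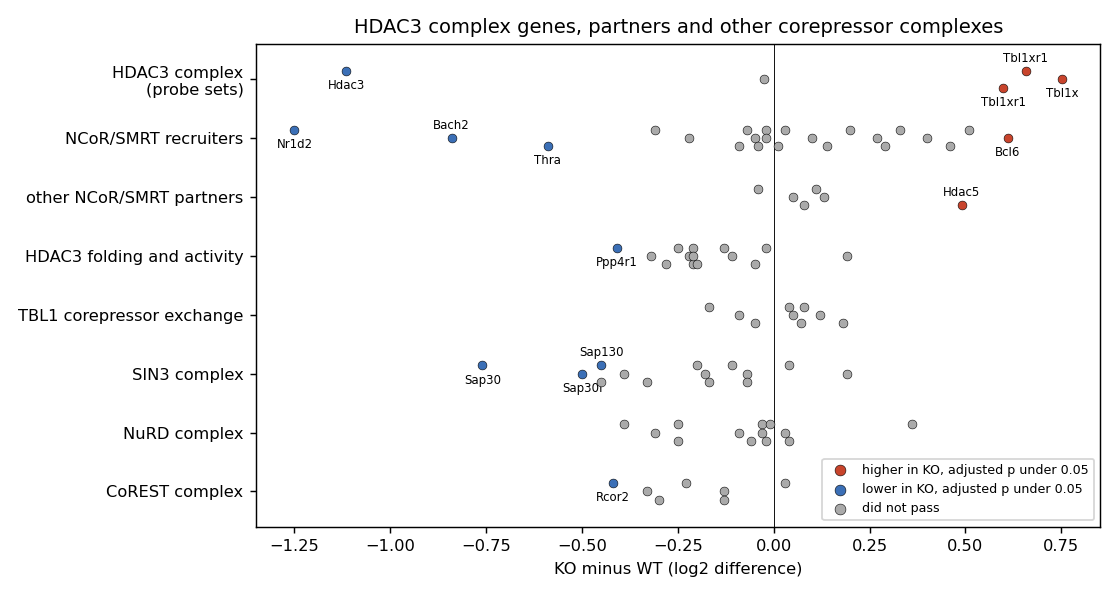
KO minus WT log2 differences (x axis) of the 5 member probe sets and of genes in each list of partners or other corepressor complexes (y axis), 1 point per gene, coloured where the adjusted p was under 0.05. Tbl1x and Tbl1xr1 lie between 0.60 and 0.75, whereas the called genes of the SIN3 and CoREST complexes lie between -0.76 and -0.42.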

How the data were processed

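Probe set values were used as the authors deposited them, 1 column for each of 6 arrays. The deposited values are log2, as read from their range of 1.94 to 13.98. No source used here states the background correction, normalization or probe summarization. The labels' protocols name an Affymetrix whole-transcript labelling kit. Groups came from sample titles.

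Symbols came from the platform annotation and matched RefSeq (GRCm38.p6) by Entrez identifier for all 5 member probe sets. All 23410 probe sets with a symbol were fitted with limma 3.58.1 (lmFit and eBayes, R 4.3.3) in a model of 2 group means, with two-sided p-values, Benjamini-Hochberg adjustment over all of them and a threshold of 0.05. Values are mean ± SD or log2 difference, KO minus WT, with SE. The number of arrays limits precision: the median SE was 0.11. The fit was tested on simulated data.

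Members and lists were chosen with earlier results of these data known. In a list, a gene with several probe sets was represented by the brightest. Named were all members, in each partner list up to 3 called genes with the largest differences (the smallest p where none was called), called neighbours, and the 5 nearest patterns. Other genes were named after their values were seen. Alternatives were quantile, cyclic loess and median scaling, leaving out dim probe sets (mean under 4.47), testing all probe sets, an intensity trend with robust prior, array weights, a replicate block, and leaving out each array. Same-numbered arrays of the genotypes had deviations correlated at 0.25, -0.07 and -0.03, so the numbers were not taken to pair them. Of the listed genes, 13 had no probe set of their own and were not analysed here.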

Additional observations from a re-analysis of the deposited data

How the results depend on the processing

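The calls of Hdac3, Tbl1x and both Tbl1xr1 probe sets held under all 14 alternatives. With 1 array left out, differences ranged from -1.13 to -1.10 for Hdac3, 0.70 to 0.82 for Tbl1x, 0.64 to 0.69 and 0.53 to 0.65 for the Tbl1xr1 probe sets, and -0.05 to 0.01 for Gps2. Gps2 turned positive after quantile (0.05) and cyclic loess (0.07) normalization and without KO array 2 (0.01). Tested with the replicate number as a block, the differences of the 5 probe sets were -1.12, 0.75, 0.66, 0.60 and -0.03, with calls as before. Median centring moved the median of all probe sets from 0.02 to -0.08.

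Counts of called genes moved in smaller lists. After quantile and cyclic loess normalization the folding and activity list had 0 calls, SIN3 had 1 and CoREST had 0. Median centring gave SIN3 5, NuRD 2 and CoREST 3 calls, the intensity trend with robust prior gave SIN3 5, NuRD 3 and the exchange list 1, and array weights gave SIN3 5 and NuRD 2. The replicate block gave 0 calls in the folding list and 2 in SIN3 (3 without it), and testing all probe sets gave 0 in CoREST. With 1 array left out the counts were 1 to 5 for SIN3, 0 to 1 for folding, 0 to 1 for other partners, and 0 for CoREST. The cause of these moves was not tested. Across all probe sets, 474 to 1946 were called with 1 array left out, against 1355 with all 6.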
